A study of Sus scrofa with 189 samples.

Results

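The fast fibre contractile genes described here are 10 genes of the contractile and calcium-handling machinery of fast skeletal muscle fibres: MYH2, MYH4, TNNT3, TNNI2, TNNC2, MYLPF, MYL1, ATP2A1, CASQ1 and ACTN3. They were chosen by name from the 12651 genes listed for longissimus dorsi, the back muscle along the spine. Of these, 9 carry their symbol in the deposited table, and MYL1 was found by its gene ID ENSSSCG00000016157. They comprise 36 of the 18114 listed transcripts, and all 10 genes and all 36 transcripts passed the filter on low values. Polyadenylated RNA came from 189 first-generation pigs of Duroc boars and Luchuan sows, on 1 farm and diet per the labels, slaughtered at about 210 days of age. The labels name 8 boars, and 112 sows in one text and 158 in another. All animals share the cross, the tissue and sampling soon after death, and the labels name no treatment of the animals. The labels record intramuscular fat content (IMF, unit not stated) for 164 animals. In 21 of these the title carries the word re-analyzed, which the labels do not explain. These are called marked libraries below, 11 of low IMF and 10 of high IMF, against 143 unmarked libraries with IMF and 25 unmarked libraries without it.

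A skeletal muscle fibre shortens when myosin heads pull on actin filaments. The heavy chain sets the speed: in the fast fibres of most mammals it is the IIA (MYH2), IIX (MYH1) or IIB (MYH4) form, while slow fibres use MYH7. Light chains support the heavy chain, the troponin complex on the thin filament switches contraction on when calcium binds, and a calcium pump and calcium store in the sarcoplasmic reticulum set how fast the signal starts and ends. Pig longissimus is known as a largely fast, glycolytic muscle.

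The summed FPKM of all listed transcripts (fragments scaled to transcript length and library size) lay between 364109 and 465105 per library, with a median of 415170. The 10 genes took between 7.58% and 17.1% of it, with a median of 13.4%. No read counts are given, so that depth is unknown and errors are the spread between animals. Library 39 had the lowest median correlation with the others, 0.889. Libraries 3, 39 and 104 were each among the 3 lowest for 5 of the 10 genes, so that low values came repeatedly from the same animals. In bulk tissue, fewer fibres of a type and less RNA per fibre cannot be told apart.

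The heavy chain genes lie side by side on chromosome 12 of the build Sscrofa11.1, and what the table calls MYH2 covers more than MYH2. Its gene ID ENSSSCG00000029441 runs from 55225686 to 55278278 on the minus strand, 9.73 kb from MYH4 at 55190601 to 55215951. RefSeq places 2 genes in the first interval: MYH1, the IIX chain, at 55225581 to 55251495, and MYH2, the IIA chain, at 55252974 to 55278820. Transcript ENSSSCT00000019596, with 38 exons, lies wholly over MYH1, and ENSSSCT00000019597, with 39 exons, wholly over MYH2. The other 2 transcripts span both. The transcript over MYH1 held 83.0% of the gene sum on average (70.9% to 92.1%) and led in all 189 libraries, while the one over MYH2 held 13.6% (2.82% to 27.0%). The gene sum labelled MYH2 was therefore mostly signal over the IIX gene, and both transcripts are given separately below. Reads shared between these near-identical chains may have been assigned to either one.

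The other members lie elsewhere. TNNI2 (1251527 to 1254226) and TNNT3 (1299273 to 1316514) are neighbours on chromosome 2, plus strand, with 45.0 kb between them, and ACTN3 (5860397 to 5874375, minus) is on the same chromosome. MYLPF (17938130 to 17941107, minus) and ATP2A1 (18545071 to 18570699, plus) are on chromosome 3, 604 kb apart. TNNC2 is on chromosome 17 (48023061 to 48028587, minus), MYL1 on chromosome 15 (113036194 to 113063231, minus) and CASQ1 on chromosome 4 (90275213 to 90294819, minus). Other listed genes overlap 6 of the members, on the opposite strand for MYLPF, MYL1, ATP2A1 and ACTN3. The highest of them is RABEP2 with a mean of 88.2 FPKM, against 2159.5 FPKM for ATP2A1. The counting is not stated to use strand, so reads of such partners cannot be told apart.

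All 10 genes were abundant in every animal. The regulatory light chain MYLPF was highest, with a lowest value of 5131 FPKM, a median of 14523 and a highest of 25936 over 189 libraries. TNNT3, the troponin subunit that binds tropomyosin, ranged from 5562 over a median of 12954 to 19430.4 FPKM. TNNI2, the inhibitory troponin subunit, ranged from 2566 over 7937 to 12701 FPKM. TNNT3 was above TNNI2 in 189 of 189 libraries, whereas MYLPF exceeded TNNT3 in 131, so that the order of the top pair was not fixed. TNNC2, the calcium-binding troponin subunit, ranged from 3245 over 6115 to 13365 FPKM, and the MYH2 gene sum from 1224 over 3505 to 8752 FPKM. ACTN3, the alpha-actinin of fast Z-discs, lay between 1337 and 4204 FPKM, with a median of 2686. The essential light chain MYL1 ranged from 993 over 2292 to 4558 FPKM. The calcium pump ATP2A1 ranged from 1051 over 2131 to 4450.1 FPKM and MYH4 from 288 over 1840.4 to 4207 FPKM. Neighbours in this lower stretch overlapped widely: MYL1 was above ATP2A1 in 107 of 189 libraries and ATP2A1 above MYH4 in 120. CASQ1, the calcium store protein calsequestrin, was lowest of the 10, from 226 over 799 to 1782 FPKM, and lay below MYH4 in 178 libraries.

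**Figure D1:**
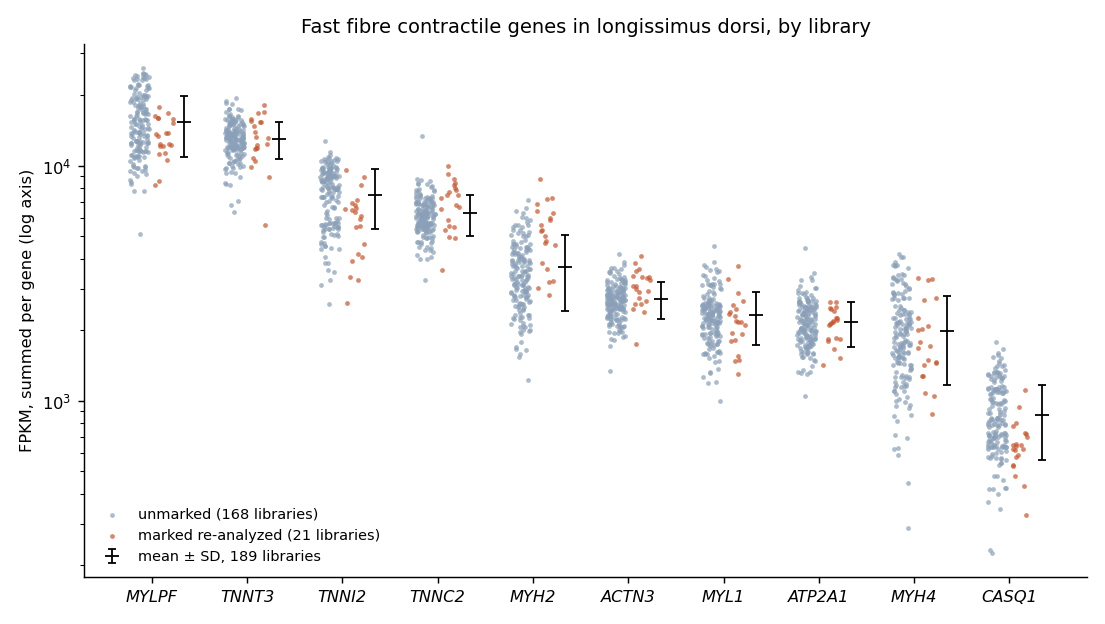
FPKM summed per gene on a log axis, 1 point per library, with 168 unmarked libraries in blue, 21 marked libraries in orange and the mean ± SD over all 189 as a black bar. MYLPF and TNNT3 sit highest with means of 15309 and 12990.4 FPKM, CASQ1 lowest with 866, and MYH4 has the longest lower tail.

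The members differed in how much they varied between animals. MYH4 varied most, with an SD of 0.64 on the log2(FPKM + 1) scale and a 14.6-fold range, which is a larger SD than that of 88.6% of the 10717 genes tested. CASQ1 (SD 0.53), the MYH2 gene sum (0.51) and TNNI2 (0.46) followed. ACTN3 (0.26), TNNC2 (0.28) and TNNT3 (0.28) varied least, and 16.1% of tested genes had an SD below that of ACTN3. Of the 3 troponin subunits, TNNI2 therefore varied more between animals than TNNC2 and TNNT3, with 68.3% of tested genes below its SD against 21.2% and 21.9%.

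Among the heavy chains the signal over MYH1 was largest in most animals. Of the summed FPKM of MYH4, MYH2 and the slow MYH7, the transcript over MYH1 held 46.8% ± 10.6 (SD, n = 189), MYH4 30.8% ± 11.5 and MYH7 12.9% ± 5.02. The transcript over MYH2 held 7.62% ± 2.75, and those that span both genes 1.87% ± 0.973. The transcript over MYH1 was the highest form in 141 libraries and MYH4 in the other 48. MYH4 exceeded the transcript over MYH2 in 183 libraries, and the MYH7 gene sum exceeded it in 151. That sum holds several transcripts. ENSSSCT00000002271, the one that lies over MYH7 alone, had a mean of 507.6 FPKM (SD 208), beside 506.4 (SD 243) for the transcript over MYH2. By these labels IIX was the leading form, IIB the next and IIA the lowest of the 3 fast forms, with the limit that the MYH7 gene ID also spans a second RefSeq gene, LOC100736765.

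The balance of IIB against the gene labelled as IIA was taken as log2(MYH4 + 1) minus log2(MYH2 + 1). It ranged from -3.29 over a median of -0.85 to 0.91 in the 189 libraries, and MYH4 exceeded the MYH2 gene sum in 30 of them. At the low end, unmarked library 39 had 288 FPKM of MYH4 beside 2822 of MYH2. At the high end, unmarked library 6 had 3769 FPKM of MYH4 beside 2008 of MYH2. The share of MYH4 in the sum of both thus ran from 9.26% to 65.2%. Against the transcript over MYH1, the IIX gene, the median balance was -0.64. Against the one over MYH2, the IIA gene, it was 2.05, with MYH4 higher in 183 of 189 libraries. By these labels the balance with the gene sum is thus mostly IIB against IIX, with the limit of shared reads given above.

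**Figure D2:**
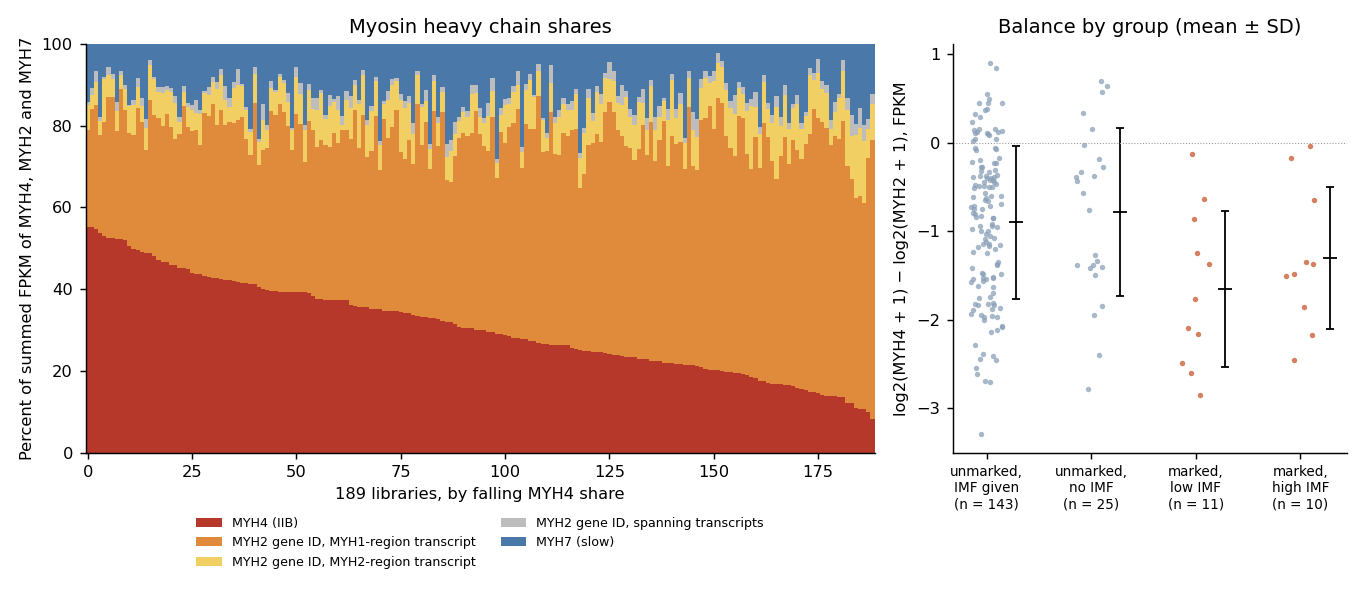
Left, percent of the summed FPKM of MYH4, MYH2 and MYH7 in each of 189 libraries, ordered by falling MYH4 share; right, the log2 balance of MYH4 over the MYH2 gene sum by group, with the mean ± SD beside the points. MYH4 falls without a step from left to right, mostly against the transcript over MYH1, and the marked groups have means of -1.65 and -1.30 against -0.90 and -0.78 in the unmarked ones.

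MYH2 and MYH4 were weakly opposed across animals. With the mean of the marked and unmarked sets removed, r was -0.18 and Spearman's rho -0.24 over 189 animals, with permutation p adjusted over 10 pairs of 0.02 and 0.00156. Without the 2 animals farthest in MYH2 r was again -0.18, and it was -0.35 within the marked and -0.17 within the unmarked libraries (adjusted p = 0.0537 by permutation in the unmarked alone). By transcript, MYH4 was opposed to the one over MYH1 (r = -0.20, rho = -0.26, r = -0.24 without the 2 farthest animals, permutation p adjusted over 3 pairs = 0.0093 and 0.00033) and r with the one over MYH2 was -0.04 (adjusted p = 0.63 by permutation). The transcripts over MYH1 and MYH2 rose and fell together (r = 0.60, rho = 0.59, r = 0.59 without the 2 farthest animals, adjusted permutation p = 3e-05, from the smallest p that 100000 permutations give). Both belong to 1 gene ID, and the part of shared reads in this r was not tested. The slow chain MYH7 had r of 0.09 with MYH2 and 0.07 with MYH4, neither past the threshold (adjusted permutation p = 0.277 and 0.363).

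Apart from MYH2, the members mostly rose and fell together. Of the 45 pairs among the 10 genes, 35 had a positive r, and 25 positive and 6 negative pairs passed a permutation p adjusted over the 45. Of these negative pairs 5 involve MYH2, and the other is MYL1 with ATP2A1 (r = -0.16, rho = -0.18, adjusted permutation p = 0.0402). The median r was 0.21. Over the 4278 pairs of the 93 genes averaging 500 FPKM or more, which include the 10 members, it was 0.04 and 54.2% were positive. How many of those pairs would pass was not tested. MYLPF and CASQ1, a light chain and a calcium store protein on different chromosomes, were closest (r = 0.80, rho = 0.83, r = 0.79 without the 2 farthest animals, 0.66 in marked and 0.81 in unmarked libraries, adjusted permutation p = 2.25e-05). TNNT3 with TNNC2 gave 0.71, ATP2A1 with ACTN3 0.64 and TNNT3 with MYLPF 0.64. These 3 pairs had the same adjusted permutation p.

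Within the troponin complex the subunits were correlated in each pairing that was chosen. TNNT3 with TNNI2 gave r = 0.58 (rho = 0.57, 0.85 in marked and 0.53 in unmarked libraries), and TNNI2 with TNNC2 r = 0.38 (rho = 0.36, 0.90 and 0.29). The light chains MYLPF and MYL1 gave r = 0.47 (rho = 0.44), and the calcium genes ATP2A1 and CASQ1 r = 0.53 (rho = 0.52). Each of these 4 pairs had a permutation p adjusted over 10 pairs of 2.5e-05, and r without the 2 farthest animals lay at 0.56, 0.36, 0.42 and 0.49. ACTN3 rose with MYH4 (r = 0.25, rho = 0.16, 0.17 without the 2 farthest animals, adjusted permutation p = 0.00102 and 0.0452) but its r with MYH2 was -0.03 (adjusted permutation p = 0.698).

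MYH2 was opposed to MYLPF, to 2 of the 3 troponin subunits and, less far, to CASQ1. Its r was -0.36 with MYLPF, -0.36 with TNNI2 and -0.32 with TNNT3 (adjusted permutation p = 2.25e-05, 2.25e-05 and 6.43e-05). With TNNC2 r was -0.14 (rho = -0.08) and did not pass (adjusted permutation p = 0.0811). With CASQ1 it was -0.19 (rho = -0.25, 0.35 in marked and -0.24 in unmarked libraries, adjusted permutation p = 0.0126). For MYLPF, TNNI2 and TNNT3, r in the unmarked libraries was -0.40, -0.39 and -0.37. In the 21 marked libraries it was 0.14, -0.13 and -0.01, and whether the sets differ was not tested. After each library was shifted to a common median, r was -0.10, -0.19 and -0.08, and of these 3 only that with TNNI2 passed (adjusted permutation p = 0.00837). For CASQ1 r was then 0.0038. That shift raised the median r of the 45 pairs to 0.43 and changed the sign of 5. Its effect on the pairs of other abundant genes was not tested.

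**Figure D3:**
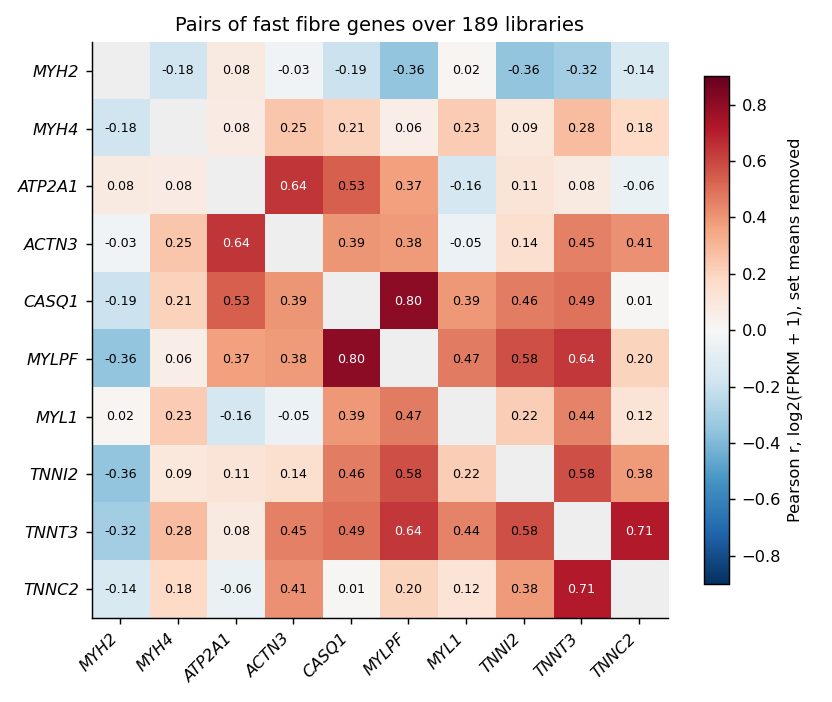
Pearson r of log2(FPKM + 1) for each pair of the 10 genes over 189 libraries, with the mean of the marked and unmarked sets removed; red is positive, blue negative and the diagonal is grey. The row of MYH2 is blue or near white, with a highest r of 0.08 (ATP2A1) and a lowest r of -0.36 (MYLPF), while MYLPF and CASQ1 reach 0.80.

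A measure of long against short transcripts moved with several of these genes. For each library it was taken as the mean log2(FPKM + 1) of 2687 other genes with a leading transcript of at least 5000 bases minus that of 884 genes of at most 1000 bases, a choice made after the data were seen. MYH2, whose leading transcript has 5863 bases, rose with it (r = 0.44, rho = 0.37, 0.41 without the 2 farthest animals, 0.55 in marked and 0.42 in unmarked libraries). The short TNNC2 (r = -0.65, rho = -0.63, -0.60 without the 2 farthest) and TNNT3 (r = -0.51, rho = -0.54, -0.49) fell with it. All 3 had a permutation p adjusted over 11 measures of 3.67e-05. Over all 189 libraries the other members did not follow the length of their leading transcript in order. ACTN3, of 3380.0 bases, had an r of -0.32 (rho = -0.34, -0.31 without the 2 farthest, adjusted permutation p = 5.5e-05), farther from 0 than TNNI2 of 728 bases (r = -0.29) and MYLPF of 693 bases (-0.25). ATP2A1, of 5791 bases, had an r of 0.11 and did not pass (adjusted permutation p = 0.144). Its r was 0.71 in marked and 0.04 in unmarked libraries. For TNNI2 these values were -0.72 and -0.22, for ACTN3 -0.20 and -0.34, and for MYLPF -0.18 and -0.27. For MYH4, of 5929 bases, r was 0.17 (rho = 0.16, 0.18 without the 2 farthest, adjusted permutation p = 0.0305 and 0.0468). It was -0.09 in marked and 0.20 in unmarked libraries, and whether the sets differ was not tested for any of these genes. For the balance of MYH4 over MYH2, r over all libraries was -0.12 (rho = -0.10, adjusted permutation p = 0.133). The part of this measure in the pair values above was not tested.

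The fast member was above its slow counterpart in all 189 libraries for 9 of the 10 pairs compared. The median ratio of FPKM was 43.5 for MYLPF over MYL2, 19.0 for TNNI2 over TNNI1, 14.8 for TNNT3 over TNNT1 and 13.2 for ATP2A1 over ATP2A2. It was 5.49 for ACTN3 over ACTN2, 4.99 for TNNC2 over TNNC1 and 4.44 for MYL1 over MYL3. CASQ1 over CASQ2 had the widest ratio, a median of 171, with CASQ2 at a mean of 5.44 FPKM. The exception was MYH4 over MYH7, with a median of 2.45 and MYH7 higher in 17 libraries. Fast and slow forms of a pair were nearly unrelated across animals, with r between -0.15 and 0.14. TNNT3 with TNNT1, tested as chosen, had r of 0.07 (rho = 0.06, adjusted permutation p = 0.363), which rose to 0.32 after the shift to a common median (adjusted permutation p = 6.67e-05).

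Which other genes were most like the heavy chains was described over 4794 non-member genes averaging 5 FPKM or more, by r over 189 animals with set means removed. MYH3, the embryonic heavy chain, came first for MYH2 (r = 0.75, mean 11.4 FPKM), and among the next were the slow myosin-binding protein MYBPC1 (0.65), the M-band protein MYOM1 (0.63) and CAP2 (0.62). For MYH4 they were MYH13, the extraocular heavy chain (0.58, mean 10.1 FPKM), ERCC5 (0.41), NQO1 (0.41), HR (0.39) and the glycolytic enzyme GPI (0.39). MYH3 and MYH13 belong to the same gene family as the members, and the part of shared reads in these values was not tested. The balance was most like MYBPH (0.53), NQO1 (0.39), HR (0.38), ENSSSCG00000037775 (0.37) and MICAL2 (0.36). It was most opposed to EML2 (-0.45), MYBPC1 (-0.44), SMYD2 (-0.43), RIOX2 (-0.42) and MKRN2 (-0.41). The heavy-chain-associated proteins MYBPH and MYBPC1 thus stood at opposite ends. With the MYH2 gene sum alone they did so too, at r of -0.56 and 0.65. Neither was among the 5 genes most like or the 5 most opposed to MYH4.

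Several members were carried by different transcripts in different animals. TNNI2 was the clearest. Its transcript ENSSSCT00000049867, which starts at 1251527 and has 7 exons, held between 0.42% and 93.5% of the gene sum (median 70.1%) and led with over 50% in 118 libraries. ENSSSCT00000061634, which starts at 1252206, held over 50% in 51 libraries. The shares were not spread evenly: 94 libraries lay between 70% and 90%, 32 between 40% and 50%, and 26 under 20%. ENSSSCT00000041739, which starts at 1252666 and ends further downstream at 1254226, had a median of 66.0 FPKM but reached 3234 FPKM and 47.7% of the gene sum. In the 10 libraries with under 10% of ENSSSCT00000049867, the TNNI2 sum ranged from 3092 over 4659.7 to 9191 FPKM. In the others it ranged from 2566 over 8000.3 to 12701, so that the median was lower in those 10 and the ranges overlapped. Across libraries the share of this transcript had an r of 0.48 with the log2 TNNI2 sum, a value that was not tested.

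**Figure D4:**
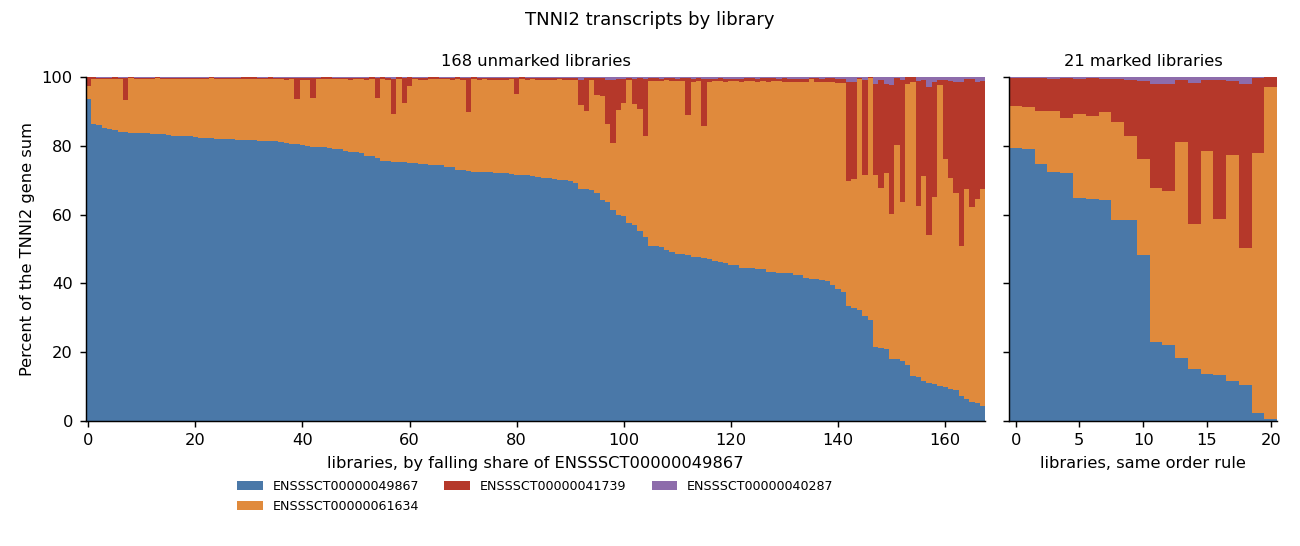
Share of each of the 4 TNNI2 transcripts in the gene sum, in percent, with 168 unmarked libraries on the left and 21 marked libraries on the right, each ordered by falling share of ENSSSCT00000049867. The blue transcript forms plateaus rather than a slope, and the red transcript ENSSSCT00000041739 reaches up to 47.7%.

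CASQ1 and ATP2A1 showed the same behaviour in fewer animals. The main CASQ1 transcript ENSSSCT00000007003 held under 10% of the sum in 9 libraries, with values of at most 10.9 FPKM, and the other transcript then carried the gene. The CASQ1 sum in those libraries ranged from 347 over 541 to 714 FPKM, against 226 over 812 to 1782 FPKM in the rest, so that the median was lower and the ranges overlapped. For ATP2A1, ENSSSCT00000045924 held under 10% in 6 libraries, all unmarked, whose sums of 1586 to 2864 FPKM lay within the range of the others. Across libraries the r of transcript share with the log2 gene sum was 0.45 for this CASQ1 transcript and -0.0013 for this ATP2A1 transcript, neither tested. How StringTie divided reads between overlapping transcripts was not tested.

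MYL1 is known to make the short light chain MLC3f from an inner start and the long MLC1f from an outer one. Here 3 transcripts start at or downstream of 113051743 and 3 at or upstream of 113063176, a gap of 11.4 kb on the minus strand. The inner-start transcripts held 75.0% ± 4.08 (SD, n = 189) of the sum and the outer-start ones 25.0% ± 4.08, with the outer share between 15.0% and 39.0%. TNNT3, with 9 transcripts, was led by ENSSSCT00000046868 in all 189 libraries (55.5% to 75.1%), and MYLPF by ENSSSCT00000008547 (88.6% to 99.3%). ACTN3 was led by ENSSSCT00000014153 in all 189 (57.6% to 94.2%) and TNNC2 by ENSSSCT00000008127 in 186 at over 50%.

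Whether the fast fibre genes follow intramuscular fat was asked over the 164 animals with IMF, with the mark as a covariate. None of the 10 genes passed (limma on log2(FPKM + 1), adjusted p under 0.05), where 0.084% of the 10717 genes did, and 0 of the 10 had an unadjusted p under 0.05. The slope was farthest from 0 for MYH4, -0.06 log2 units per IMF unit (SE 0.044, adjusted p = 0.961), and 7 of 10 slopes were negative. MYH4 ranged from 693 over a median of 1868 to 3900.03 FPKM in the 41 animals lowest in IMF, and from 445 over 1725 to 3769 FPKM in the 41 highest, so that the ends overlapped almost fully. The MYH2 slope was -0.01 (SE 0.033) and turned to 0.08 in the unmarked libraries alone. By transcript, 0 of 36 passed where 0.0471% of all did. The median slope of the 10 genes was -0.01, beside 0.01 over all genes. Of the 29 other fast apparatus genes, 13 slow or cardiac forms and 17 regulators of fibre type tested, 0 passed. The adipocyte markers were at 3 of 6 in the same fit, with PLIN1, ADIPOQ and LEP rising.

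The balance did not follow IMF past the threshold either. Over 164 animals r was -0.07 and rho -0.10, with permutation p of 0.387 and 0.195, and r was -0.09 without the 2 animals farthest in IMF. Within the sets the signs differed, with r = 0.20 in the 21 marked and -0.18 in the 143 unmarked libraries. In the unmarked libraries alone the permutation p was 0.0354, or 0.0531 adjusted with the other balance tests, and r fell to -0.13 without the 2 farthest animals.

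In the marked libraries alone, high and low IMF could be compared directly, with 10 against 11 animals. None of the 10 genes passed, where 0.084% of all did. MYH2 had the smallest p: its gene sum ranged from 2808 over a median of 4685 to 6429 FPKM at high IMF and from 3614 over 5972 to 8752 FPKM at low IMF. The groups overlapped, and the log2 difference of -0.41 (SE 0.175) had an unadjusted p of 0.0283 and an adjusted p of 0.986 (limma). The other 9 differences lay between -0.10 and 0.12, with MYH4 at -0.06 (SE 0.232). The balance was higher at high IMF by 0.35 log2 units, with a permutation p of 0.351. The test of a difference of IMF slopes between the marked and unmarked sets called none of the 10, where 0% of all genes passed. Its smallest p was that of MYH2 (difference -0.16, SE 0.064, unadjusted p = 0.0109, adjusted p = 1.0, limma).

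The calls among the members lay between marked and unmarked libraries. With IMF as a linear covariate, 4 of the 10 genes passed, 2 higher and 2 lower, and 41.1% of all genes tested did. The share among the members is near the background and no result about them. IMF ran from 0.77 to 2.33 in marked low-IMF and from 4.83 to 6.84 in marked high-IMF libraries. In the 143 unmarked ones it ran from 1.19 to 5.61, and a relation to IMF that is not linear was not tested. MYH2 ranged from 2808 over a median of 5265 to 8752 FPKM in the 21 marked libraries and from 1527 over 3399 to 7106 FPKM in the 143 unmarked ones. The sets overlapped, with 17 of 21 marked libraries above the unmarked median, and the fitted log2 difference of MYH2 was 0.56 (SE 0.11, adjusted p = 1.8e-05, limma). Library 69 of the marked low-IMF group held the highest value. ACTN3 was 3065 FPKM at the median of the marked and 2667 of the unmarked libraries, higher by 0.20 (SE 0.061, adjusted p = 0.00646), with 15 of 21 above the unmarked median.

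The 2 members that fell were an inhibitory troponin and the calcium store protein. TNNI2 ranged from 2602 over a median of 6107 to 9541 FPKM in marked libraries and from 2566 over 7983 to 12701 in unmarked ones, lower by 0.39 (log2 difference -0.39, SE 0.107, adjusted p = 0.00223). CASQ1 ranged from 327 over 640.5 to 1106 FPKM against 226 over 827 to 1782, a log2 difference of -0.40 (SE 0.12, adjusted p = 0.00526). Only 3 and 2 of the 21 marked libraries, respectively, lay above the unmarked median, although the ranges of both sets overlapped. TNNC2 had a difference of 0.15 (SE 0.064) with an adjusted p of 0.0548. MYH4, ATP2A1, TNNT3, MYL1 and MYLPF lay between -0.17 and -0.00 and did not pass. The ACTN3 call was lost under quantile normalization (0.03, adjusted p = 0.725), and with the most abundant transcript alone (0.07, adjusted p = 0.494). With that transcript alone the CASQ1 difference was larger, -0.60 with an SE of 0.451, and did not pass (adjusted p = 0.293).

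**Figure D5:**
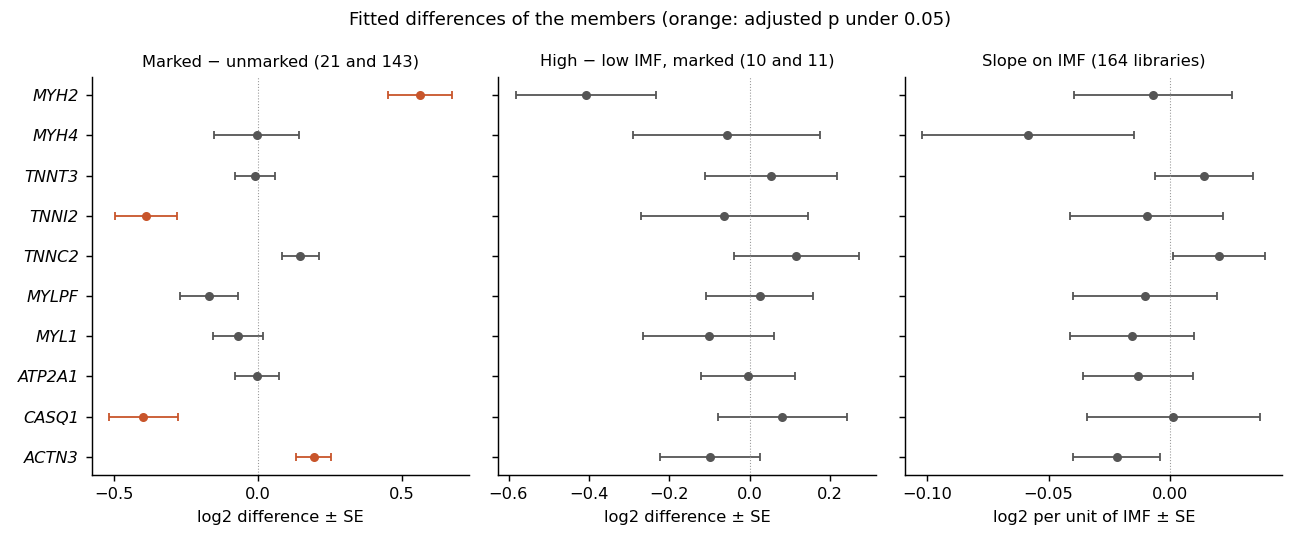
Fitted log2 values with their SE for the 10 genes: marked minus unmarked libraries (left, 21 and 143), high minus low IMF within the marked libraries (middle, 10 and 11) and the slope on IMF (right, 164 libraries, in log2 per IMF unit). Orange points passed an adjusted p under 0.05 and are seen only on the left: MYH2 at 0.56, ACTN3 at 0.20, TNNI2 at -0.39 and CASQ1 at -0.40.

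The IIB share was lower in marked libraries as MYH2 rose beside an MYH4 that differed by -0.00 (SE 0.148). The log2 balance of MYH4 over MYH2 was lower by 0.56 (difference -0.56, permutation p = 0.00562, or 0.0169 adjusted over the 3 balance tests). It was -1.65 ± 0.881 (SD, n = 11) in marked low-IMF, -1.30 ± 0.802 (n = 10) in marked high-IMF and -0.90 ± 0.862 (n = 143) in unmarked libraries, so that the groups overlapped. MYH4 over the transcript on MYH1 alone differed by -0.57 and over that on MYH2 alone by -0.56 (permutation p = 0.0056 and 0.0105). The balance between those 2 transcripts did not move past the threshold (0.01, permutation p = 0.931).

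By transcript, 14 of 36 passed between the sets, 10 higher and 4 lower, and 33.2% of all 14852 transcripts did. This share too is near the background and no result about the members, and the single transcripts below are given as a description. The TNNI2 transcript ENSSSCT00000041739 stood out in size. It ranged from 107 over a median of 807 to 3234 FPKM in marked libraries and from 14.3 over 61.5 to 2481 FPKM in unmarked ones, and all 21 marked libraries lay above the unmarked median. Its log2 difference was 3.00 (SE 0.452, limma adjusted p = 7.62e-08). The leading TNNI2 transcript ENSSSCT00000049867 fell, with a log2 difference of -1.30 (SE 0.325, adjusted p = 0.000971), so that the lower gene sum went with a changed makeup. Of the MYH2 transcripts, that over MYH1 rose by 0.57 and that over MYH2 by 0.56. In MYL1 the inner-start ENSSSCT00000058889 rose by 0.65, while the inner-start ENSSSCT00000017591, at a mean of 18.1 FPKM, fell by 0.36. Outer-start transcripts together held 21.9% ± 3.52 (SD, n = 11) of the MYL1 sum in marked low-IMF libraries. They held 21.7% ± 3.95 (n = 10) in marked high-IMF and 25.3% ± 4.19 (n = 143) in unmarked libraries with IMF. This difference in share was not tested. The outer-start ENSSSCT00000037809 fell by 0.26, and the leading inner-start ENSSSCT00000039369 had a difference of -0.14 that did not pass (adjusted p = 0.287). ENSSSCT00000014141 of ACTN3 rose by 0.78 and ENSSSCT00000038319 of TNNT3 by 0.86. Of TNNC2, ENSSSCT00000043925 (0.64) and ENSSSCT00000008127 (0.28) rose and ENSSSCT00000055704 (-0.18) fell.

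Other genes of the same machinery moved in both directions between the sets, with lists chosen when earlier results were known. Of 29 other fast apparatus genes tested, 13 rose and 6 fell, with a median difference of 0.14 beside -0.01 over all genes. Of all 10717 genes 41.1% passed in the same comparison, 1964 higher and 2436 lower. XIRP2 (0.96), the triadin gene TRDN (0.80), KLHL41 (0.68), LMOD3 (0.63) and the junctophilin JPH1 (0.55) rose most, followed by MLF1 (0.45), tropomyosin TPM2 (0.30), UNC45B (0.29), JSRP1 (0.28), STAC3 (0.27), MYOM2 (0.24), the fast myosin-binding protein MYBPC2 (0.21) and TMOD4 (0.14). SMYD1 (-0.63), skeletal actin ACTA1 (-0.50), PDLIM3 (-0.43), MYOZ3 (-0.39), SYNPO2L (-0.34) and SRL (-0.19) fell. Of 13 slow or cardiac forms only TNNC1 (-0.49) and ACTN2 (0.22) passed. Of 17 regulators of fibre type, MEF2C (0.74) and VGLL2 (0.31) rose and TBX15 (-0.74), THRA (-0.50), NFATC1 (-0.50), MYOG (-0.43), MEF2D (-0.41) and HDAC4 (-0.28) fell.

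Markers of most other cell types were lower in the marked libraries, in a comparison where 2436 of 10717 genes were called lower. Of the fibroblast markers 6 of 6 were called lower, of the macrophage markers 5 of 5, of the adipocyte markers 5 of 6, of the endothelial markers 3 of 5, of the smooth muscle markers 3 of 4 and of the red blood cell markers 2 of 2 tested. The summed fibroblast markers ranged from 274 over a median of 1109 to 3463 FPKM in unmarked libraries with IMF, from 281 over 666 to 1516 in marked low-IMF and from 492 over 781 to 1086 in marked high-IMF libraries. The adipocyte sum ranged from 34.1 over 156 to 3178 FPKM, from 41.9 over 80.5 to 183 and from 103 over 162 to 314 in the same order, and no fibroblast or adipocyte marker was at 0 in any library. Of the macrophage and the red blood cell markers, 1 each was listed at 0 in some library. The macrophage sum had medians of 27.9, 18.4 and 21.4 FPKM and the endothelial sum 57.5, 37.2 and 45.8. The smooth muscle sum had medians of 130.3, 102.5 and 86.9 FPKM and the red blood cell sum 64.7, 35.1 and 60.7. The satellite cell and regenerating fibre markers went the other way in their sum, with medians of 51.6, 66.0 and 56.0 FPKM, and of their 4 genes 1 was called higher (MYH3) and 2 lower. The share of summed FPKM from the mitochondrial chromosome had medians of 6.82%, 6.99% and 7.17%. The long against short measure was lower in marked libraries, -1.35 ± 0.152 (SD, n = 11) and -1.38 ± 0.166 (n = 10) against -1.23 ± 0.127 (n = 143), while the long MYH2 was higher there. With that measure as a covariate MYH2 rose by 0.76 and TNNI2 and CASQ1 kept their calls, whereas ACTN3 had 0.12 (adjusted p = 0.105, limma). The part of cell makeup in the differences between the sets was not tested.

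Animals that share the first 9 digits of their title, a code the labels do not explain, were compared over 146 animals of 48 codes. None of the 10 genes passed the moderated F test (limma), where 1.82% of all genes did, and 4 had an unadjusted p under 0.05, as did 18.8% of all genes. The intraclass correlation, the share of variance between codes, was highest for TNNC2 (0.234, adjusted p = 0.106) and ACTN3 (0.231, adjusted p = 0.111), then TNNT3 (0.187) and MYH4 (0.177), and lowest for ATP2A1 (0.0362). Its median over the 10 genes was 0.105, beside 0.0479 over all genes.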

How the data were processed

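Polyadenylated RNA of longissimus dorsi was sequenced as 150-bp read pairs on an Illumina HiSeq, per the labels' protocols. HISAT2 2.0.5, StringTie 1.3.3 and the build Sscrofa11.1 are named by the submitters' processing notes. The deposited table gives 1 value per transcript and library, read as FPKM from its layout, since its header names no unit. The authors' values were summed per gene ID. Genes (10717) and transcripts (14852) with a mean of at least 0.5 FPKM were tested on log2(FPKM + 1) with limma 3.58.1 in R 4.3.3 and Benjamini-Hochberg adjustment over all of them. A fold on this scale understates the change of low genes. No counts are given, so depth is unknown. Balances and correlations were tested with 2-sided permutation tests of 100000 draws (Python 3.11.15, numpy 2.4.6, scipy 1.17.1), adjusted over each family, with p rounded to 3 digits. The limma fits of the IMF slope and of marked against unmarked libraries were tried on simulated data, and the other tests were not. Each library is labelled as 1 animal, and kinship between animals was not modelled. All members are named; other genes are those of the chosen lists and the 5 most alike, of which 1 is not reported here. The members and lists were chosen with earlier results of these data known. Alternatives were the pseudocount, the filter, quantile normalization, a shift to a common median, the most abundant transcript, libraries left out and the mark left out. MYH2 and MYH1 transcripts apart and the long against short measure were added after the data were seen. RefSeq positions are of Sscrofa11.1.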

Additional observations from a re-analysis of the deposited data

Results flagged for a closer look

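MYLPF in library 17, of the marked high-IMF group, stood apart from the other 9 libraries of its group. It had 8633 FPKM, the lowest of the group, and the nearest other library had 12057 FPKM. This gap is 0.541 of the group's whole range, above the critical value of 0.466 for 10 samples. The 10 genes and the balance of MYH4 over MYH2 were examined in this way in that group. Chance flags about 1 in 20 groups for a single measure, and more often when 11 measures are examined. Over the whole series the value is not extreme, as MYLPF was 5131 FPKM in unmarked library 3 and 7756 in unmarked library 74.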

How the results depend on the processing

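No paired analysis was run. The replicate number is the library number, so it names no pairs. With the shared title code as a random block, 0 of the 10 genes passed on IMF, as without it. Of the correlations, balances and counts that answer a comparison, 104 values were kept. Correlations and balances were kept in direction and side of the threshold, and counts of calls at an equal or similar number. After a shift to a common median, ACTN3 with MYH2 turned to 0.13, and MYH4 with MYH7 (0.15) and TNNT3 with TNNT1 (0.32) passed. In the unmarked libraries alone MYH2 with MYH4 was -0.17 and no longer passed. For single genes and transcripts 458 values kept direction and side of the threshold, 11 lost and 5 gained a call and 24 changed sign. The calls between marked and unmarked libraries lost are ACTN3 and CASQ1, as given above, and 5 transcripts. With the long against short measure they are ENSSSCT00000008127, ENSSSCT00000037809, ENSSSCT00000040287 and ENSSSCT00000043925 (adjusted p = 0.291, 0.118, 0.062 and 0.158). With the median shift they are ENSSSCT00000037809 and ENSSSCT00000055704 (0.0647 and 0.207), and without a filter ENSSSCT00000055704 (0.0512). Gained were MYLPF and TNNT3 with the long against short measure (0.0233 and 0.0251) and TNNC2 at a mean of at least 5 FPKM, with the most abundant transcript and without IMF (0.0477, 0.00423 and 0.0392). The IMF slope turned to 0.0761, 0.0133, 0.00653 and 0.00408 for MYH2 (unmarked alone, without the mark, without the 2 lowest and 2 highest IMF, and with the long against short measure). It turned to -0.0223, -0.013 and -0.0126 for CASQ1 (unmarked alone, median shift, without the mark), 0.00451 for ATP2A1 without those 4 animals, 0.0102 for MYLPF with quantile normalization and -0.000543 for TNNT3 with the median shift. High minus low IMF turned to -0.0415 for MYLPF and -0.0135 for TNNT3 with the median shift. Between marked and unmarked libraries the median shift gave 0.0202 for ATP2A1, 0.0195 for MYH4 and 0.013 for TNNT3. Quantile normalization gave 0.0723 for TNNT3 and the most abundant transcript 0.227 for ATP2A1. The long against short measure gave 0.0336 for ATP2A1, 0.0707 for MYH4 and -0.024 for TNNC2. The difference of slopes with quantile normalization turned to 0.0139 for ACTN3, 0.0121 for TNNC2, 0.0259 for TNNI2 and 0.00345 for TNNT3. The cause was not tested. Library 39 is in neither marked group, so leaving it out gives no value there. Without counts, no limit from depth can be given.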
